A study of Homo sapiens with 8 samples.

Results

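RNA from CBAP-expressing and CBAP-deficient Jurkat cells was examined at 10 genes whose products brake signaling through the MAP kinases: the dual-specificity phosphatase genes DUSP2, DUSP4, DUSP5, DUSP6, DUSP9 and DUSP10, the Sprouty genes SPRY1 and SPRY2, and the Spred genes SPRED1 and SPRED2. They were picked by name, as rows of a table of 13453 genes, and all 10 were present. DUSP9 led the choice because its level was lower in every CBAP-deficient library, so its values within each set are given as a description without a test. Jurkat is an established human line of leukemic T cells (T-ALL), and CBAP, encoded by TMEM102, is the protein whose loss the study examined in these cells. The 8 libraries came from 4 kinds of Jurkat cells with 2 libraries each. The sh-Ctrl cells carried a lentiviral shRNA without a target and the sh-CBAP cells an shRNA against CBAP, with stable clones selected in puromycin, and which of the study's CBAP shRNAs was sequenced is not named. The CBAP-KO cells were made with CRISPR/Cas9, grown as clones from single GFP-positive cells and expressed GFP, and the CBAP-reconstituted cells were CBAP-KO cells given a CBAP-GFP fusion. All 4 libraries made with CRISPR/Cas9 therefore carry the knockout. Below, the shRNA set means the sh-Ctrl and sh-CBAP libraries, and the CRISPR set means the other 4. No source used here says that the libraries of a kind came from separate cultures, so a p-value measures the spread between these libraries, which may be technical.

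The ERK pathway passes signals from RAS through RAF and MEK to ERK, and in T cells it is engaged by the T-cell receptor. ERK switches on the genes of its own inhibitors. Dual-specificity phosphatases remove the phosphates that activate a MAP kinase, Sprouty proteins act between receptors and RAF, and Spred proteins bring neurofibromin, a RAS GTPase-activating protein, to the membrane. The levels of such genes are commonly used as a readout of ERK output, although several of them also respond to other pathways.

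The level is given as FPKM as the authors estimated it, a count of sequenced fragments divided by transcript length and by the number of mapped fragments of the library. Changes were computed as differences of mean log2(FPKM + 1), which understates the change of genes with low FPKM, and were tested with limma and Benjamini-Hochberg adjustment over all 11427 genes whose FPKM averaged at least 1. Of the 10 genes, 8 passed this filter and DUSP4 and DUSP6 did not. TMEM102 (GRCh37 chromosome 17, 7338754 to 7340998, plus strand) fell in sh-CBAP cells, with 4.07 and 4.74 FPKM in the sh-Ctrl libraries and 2.69 and 2.89 in the sh-CBAP libraries (log2 fold change -0.51 ± 0.096 (SE), adjusted p = 0.029, limma). In the CRISPR set every library, also those labelled CBAP-reconstituted, listed it at 0, so directions within that set rest on the labels alone. The sets differ in method and clones, and these cannot be told apart from any difference in how their files were processed. The number of genes listed at 0 in a library ran from 606 to 1256, and 366 genes were listed at 0 in all 4 shRNA-set libraries but above 0 in all 4 CRISPR-set libraries. All 8 T-cell markers examined were present, with a summed FPKM of 1435 to 1459 in sh-Ctrl, 1518 to 1652 in sh-CBAP, 1375 to 1382 in CBAP-reconstituted and 1759 to 2232 in CBAP-KO libraries. The highest sum, in CBAP-KO replicate 2, included 1022 FPKM of CD3E, against 530 in replicate 1 and 364 to 511 in the other conditions. The libraries labelled CBAP-reconstituted stood apart from the other 6 in some of these markers. CD5, a T-cell surface receptor, had 0.18 and 0.231 FPKM there and at least 19.7 elsewhere, the costimulatory receptor CD28 had 2.93 and 2.59 there and at least 24.1 elsewhere, and CD7 had 39.0 and 38.1 there and at least 124 elsewhere. The other 5 T-cell markers (CD3D, CD3E, CD3G, LCK and PTPRC) lay within the range of the other libraries there, and TAL1, a transcription factor of T-ALL, was highest there, at 80.1 and 80.7 FPKM against 57.7 to 66.3. Of 11 markers of other lineages only CD79A and COL1A1 were in the table. Their summed FPKM was 2.86 to 3.23 in CBAP-reconstituted, 10.73 to 10.98 in CBAP-KO and 14.1 to 23.8 in shRNA-set libraries. The low sum in the CBAP-reconstituted libraries came from CD79A alone. This B-cell gene had a mean of 0.909 FPKM there and at least 9.6 in every other library. The fibroblast gene COL1A1 was highest there, at 2.13 and 2.15 FPKM against 1.07 to 1.51 elsewhere. In RNA from whole cultures, fewer cells of a kind and less RNA per cell cannot be told apart. These values moved with the CRISPR-set comparison, and their part in its results was not tested.

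The start regions of the genes on which the results turn are shown to set their base composition and the known motifs side by side. RefSeq start regions (GRCh38.p14) were given for 8 of the 10 genes, and the 250 bases before the start are printed 5′ to 3′ on the gene's strand. Capitals mark a GC box (GGGCGG) or an ETS core (CCGGAA), each searched on either strand. DUSP2 and DUSP9 are the members that lay lower in all CBAP-deficient libraries, DUSP10 the member that lay higher in all of them, and SPRY1 the member whose change differed most between the sets.
DUSP2, minus strand, chr2:96145441-96145690: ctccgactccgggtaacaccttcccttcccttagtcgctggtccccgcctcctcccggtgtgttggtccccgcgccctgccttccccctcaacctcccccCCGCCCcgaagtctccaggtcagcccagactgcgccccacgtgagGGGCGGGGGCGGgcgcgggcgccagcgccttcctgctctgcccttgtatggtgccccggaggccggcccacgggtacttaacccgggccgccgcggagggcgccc
DUSP9, first start, plus strand, chrX:153642191-153642440: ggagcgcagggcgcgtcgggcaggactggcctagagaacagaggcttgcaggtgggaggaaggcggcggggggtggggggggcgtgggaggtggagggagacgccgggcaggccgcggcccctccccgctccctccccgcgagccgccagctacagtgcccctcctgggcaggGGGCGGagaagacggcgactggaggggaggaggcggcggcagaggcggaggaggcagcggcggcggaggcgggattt
DUSP9, second start, plus strand, chrX:153646953-153647202: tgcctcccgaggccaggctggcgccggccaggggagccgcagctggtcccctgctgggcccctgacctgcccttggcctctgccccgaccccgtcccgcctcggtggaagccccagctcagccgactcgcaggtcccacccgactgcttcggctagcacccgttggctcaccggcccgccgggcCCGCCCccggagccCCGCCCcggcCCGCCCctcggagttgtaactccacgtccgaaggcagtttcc
DUSP10, first start, minus strand, chr1:221742090-221742339: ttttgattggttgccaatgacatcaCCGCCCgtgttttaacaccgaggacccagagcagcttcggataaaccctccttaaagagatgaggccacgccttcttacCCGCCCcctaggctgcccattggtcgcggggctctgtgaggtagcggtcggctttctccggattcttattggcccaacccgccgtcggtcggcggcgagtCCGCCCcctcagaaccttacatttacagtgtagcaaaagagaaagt
SPRY1, second start, plus strand, chr4:123398136-123398385: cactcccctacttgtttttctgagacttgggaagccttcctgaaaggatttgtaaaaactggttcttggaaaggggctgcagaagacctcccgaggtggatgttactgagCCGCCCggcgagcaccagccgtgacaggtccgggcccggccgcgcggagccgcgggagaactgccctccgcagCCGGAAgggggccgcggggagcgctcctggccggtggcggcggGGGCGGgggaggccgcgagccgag
The regions of DUSP2 and DUSP9 were rich in G and C, at 74% for DUSP2 and 76.4% and 75.6% for the DUSP9 starts, against a median of 58% over 35116 such regions. The DUSP10 region held 56.4%, close to that median, and the SPRY1 region 68%. Among the start regions not shown, the share ran from 39.2% at the second SPRED2 start to 78.4% at SPRED1. The first SPRY2 start held 70.4%. GC boxes were present in all 5 sequences: 3 in DUSP2, 1 and 3 at the DUSP9 starts, 3 in DUSP10 and 2 in SPRY1. The second DUSP10 start, not shown, held 1, and the first SPRY1 start held none of the motifs searched. The GC box occurred in 42.6% of all regions of the same length. The ETS core, the binding core of the ERK-regulated ETS factors and found in 14.5% of all regions, occurred at 1 place in the SPRY1 sequence and not in the other 4 sequences. The AP-1 motif (TGANTCA, 6.57% of all regions), the partial CRE (TGACG, 21.2%) and the CArG box of SRF (1.16%), also searched on both strands, did not occur in these 5 windows. The first SPRY2 start, not shown, held 1 ETS core and 1 partial CRE. A match is a description of the letters and not a mapped site.

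Among the nuclear phosphatases, DUSP2 was lower in CBAP-deficient cells of both sets. DUSP2 (also called PAC1) acts on ERK in activated lymphocytes, and its gene lies at GRCh37 chromosome 2, 96808908 to 96811179, on the minus strand. It was the most abundant of the 10 genes, with 29.5 and 31.6 FPKM in the sh-Ctrl and 21.0 and 20.4 in the sh-CBAP libraries. The CRISPR set gave 24.0 and 22.2 FPKM in the libraries labelled CBAP-reconstituted and 10.6 and 10.1 in the CBAP-KO libraries. Every CBAP-deficient library lay below every CBAP-expressing library. In the shRNA set the log2 fold change was -0.54 ± 0.067 (SE, n = 2 libraries per condition, adjusted p = 0.011, limma), and the mean FPKM was 1.47 times as high in sh-Ctrl as in sh-CBAP cells. In the CRISPR set it was -1.08 ± 0.067 (adjusted p = 0.00017, limma), a ratio of 2.23 in mean FPKM. The decrease was larger in the CRISPR set by 0.55 ± 0.095 on the log2 scale (adjusted p = 0.0094 for the difference, limma). These 3 calls held under all 17 alternatives of processing and single libraries left out.

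**Figure D1:**
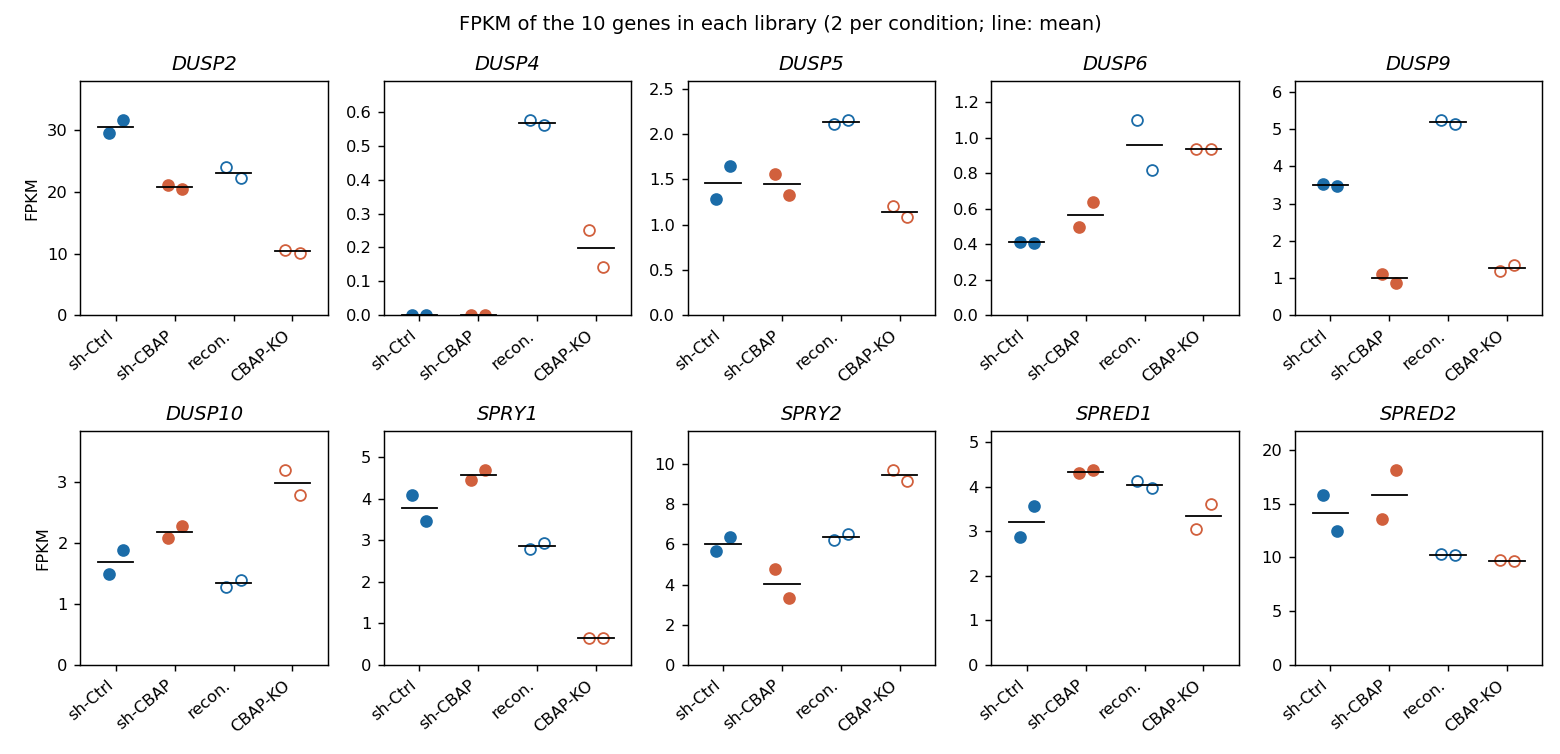
FPKM (vertical axes, each starting at 0) of the 10 genes in each of the 8 libraries, by condition (horizontal axes), with filled points for the shRNA set, open points for the CRISPR set and a line at the mean of 2 libraries. DUSP2 and DUSP9 lie lower in all 4 CBAP-deficient libraries, DUSP10 lies higher in them, and SPRY1 is at 0.64 and 0.636 FPKM in the CBAP-KO libraries against 2.79 or more elsewhere.

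DUSP5, a nuclear phosphatase selective for ERK (GRCh37 chromosome 10, 112257665 to 112271291, plus strand), was lower in CBAP-KO cells and showed no detectable change with the shRNA. It had 1.28 and 1.64 FPKM in the sh-Ctrl and 1.56 and 1.33 in the sh-CBAP libraries, which overlapped. The CRISPR set gave 2.10 and 2.15 FPKM in the libraries labelled CBAP-reconstituted and 1.21 and 1.08 in the CBAP-KO libraries. The log2 fold change was -0.01 in the shRNA set (95% interval -0.28 to 0.26, adjusted p = 0.98, limma) and -0.55 ± 0.11 in the CRISPR set (SE, adjusted p = 0.0091, limma). The sign of the shRNA-set value depended on the scaling of the libraries, since it was 0.12 with quantile normalization. The CRISPR-set call was lost without replicate 2 of CBAP-reconstituted cells (adjusted p = 0.054, range over 16 alternatives 0.0047 to 0.054, limma). The change differed between the sets by 0.54 ± 0.15 (SE, adjusted p = 0.044, limma), and this call was lost under 8 of 16 alternatives, those without sh-Ctrl replicate 1, sh-CBAP replicate 1 or any 1 of the 4 CRISPR-set libraries among them (range 0.026 to 0.13). DUSP4, a nuclear phosphatase that acts on ERK and JNK, was too low to be tested. It was listed at 0 in all 4 shRNA-set libraries and had 0.576 and 0.561 FPKM in the CBAP-reconstituted and 0.251 and 0.142 in the CBAP-KO libraries. DUSP4 was the only one of the 10 genes among the 366 listed at 0 throughout the shRNA set and above 0 throughout the CRISPR set.

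Among the 10 genes, the cytoplasmic phosphatases selective for ERK are DUSP6 and DUSP9. A further ERK phosphatase outside the 10, DUSP7, was more abundant, at 20.1 to 25.4 FPKM over the 8 libraries. DUSP9 (also called MKP-4; GRCh37 chromosome X, 152907946 to 152916781, plus strand) had 3.52 and 3.48 FPKM in the sh-Ctrl libraries and 1.11 and 0.87 in the sh-CBAP libraries. The CRISPR set gave 5.25 and 5.15 FPKM in the libraries labelled CBAP-reconstituted and 1.18 and 1.36 in the CBAP-KO libraries. These values chose the gene. All 4 CBAP-deficient libraries were between 0.87 and 1.36 FPKM and all 4 CBAP-expressing libraries between 3.48 and 5.25. The mean FPKM was 3.54 times as high in sh-Ctrl as in sh-CBAP cells and 4.1 times as high in CBAP-reconstituted as in CBAP-KO cells, with log2 fold changes of -1.18 and -1.45 on the log2(FPKM + 1) scale. The smallest gap was that between the 3.48 FPKM of sh-Ctrl replicate 2 and the 1.36 FPKM of CBAP-KO replicate 2.

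The order of the DUSP9 levels ran from CBAP-reconstituted through sh-Ctrl and CBAP-KO to sh-CBAP cells, and the steps between cells of the same CBAP class had no part in choosing the gene. The level in cells labelled CBAP-reconstituted was above that in sh-Ctrl cells by 0.46 ± 0.092 on the log2 scale (SE, adjusted p = 0.013, limma), and by 0.30 relative to the median of all tested genes, which itself lay 0.17 higher. This call was lost without either CBAP-reconstituted library (adjusted p = 0.083 without replicate 1 and 0.076 without replicate 2, range over 16 alternatives 0.0044 to 0.083, limma). The levels of the CBAP-deficient cells, next in the order, were not shown to differ, at 0.19 higher in CBAP-KO than in sh-CBAP cells (95% interval -0.038 to 0.42, adjusted p = 0.13, limma). Without sh-CBAP replicate 1 that difference was 0.28 (adjusted p = 0.046, range over 16 alternatives 0.046 to 0.68, limma). The decrease of DUSP9 was 0.27 larger on the log2 scale in the CRISPR set (95% interval of the difference -0.052 to 0.59, adjusted p = 0.16, limma), which did not pass the threshold, although it did with a pseudocount of 5 (0.20, adjusted p = 0.036) and without sh-CBAP replicate 2 (0.36, adjusted p = 0.049, range over 16 alternatives 0.036 to 0.44, limma). DUSP6 (also called MKP-3), widely used as a marker of ERK output, stayed low in all cells and was not tested. It had 0.414 and 0.408 FPKM in sh-Ctrl, 0.495 and 0.639 in sh-CBAP, 1.10 and 0.818 in CBAP-reconstituted and 0.938 and 0.933 in CBAP-KO libraries. Unlike its relative DUSP9 it lay higher in the sh-CBAP than in the sh-Ctrl libraries, and its values in the CRISPR set overlapped.

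DUSP10 was the member that lay higher in all CBAP-deficient libraries. DUSP10 (also called MKP-5; GRCh37 chromosome 1, 221874766 to 221915431, minus strand) acts mainly on the stress-activated kinases p38 and JNK rather than on ERK. It had 1.49 and 1.89 FPKM in the sh-Ctrl and 2.08 and 2.28 in the sh-CBAP libraries. The CRISPR set gave 1.28 and 1.40 FPKM in the libraries labelled CBAP-reconstituted and 3.20 and 2.78 in the CBAP-KO libraries. The groups did not overlap in either set. The log2 fold change was 0.77 ± 0.11 in the CRISPR set (SE, adjusted p = 0.0029, limma), which held under all 16 alternatives, and 0.25 in the shRNA set, where it did not pass the threshold (95% interval -0.028 to 0.52, adjusted p = 0.20, limma). The change was 0.52 smaller in the shRNA set (SE 0.16), at the threshold (adjusted p = 0.0501, range over 16 alternatives 0.037 to 0.19, limma), and the difference passed under 5 of these alternatives.

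SPRY1 fell and SPRY2 rose in CBAP-KO cells, and the change of each differed between the sets. SPRY1 (GRCh37 chromosome 4, 124317950 to 124324915, plus strand), an inhibitor of receptor signaling to RAS and RAF, had 4.10 and 3.45 FPKM in the sh-Ctrl and 4.44 and 4.70 in the sh-CBAP libraries. It had 2.79 and 2.95 FPKM in the libraries labelled CBAP-reconstituted and 0.64 and 0.636 in the CBAP-KO libraries, the lowest of all 8. In the CRISPR set SPRY1 fell by 1.24 ± 0.093 on the log2 scale (SE, adjusted p = 0.00031, limma), and its mean FPKM was 4.49 times as high in the reconstituted as in the knockout cells. In the shRNA set the log2 value was 0.22 (95% interval -0.0053 to 0.45, adjusted p = 0.17, limma), which did not pass. The difference between the sets was 1.46 ± 0.13 (SE, adjusted p = 0.0012, limma), the largest among the 8 tested genes, and held under all 16 alternatives. CBAP-KO cells also lay 1.77 ± 0.093 below sh-CBAP cells on the log2 scale (adjusted p = 0.00011, limma).

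SPRY2 (GRCh37 chromosome 13, 80910111 to 80915261, minus strand), a Sprouty gene of similar function, had 5.66 and 6.40 FPKM in the sh-Ctrl and 4.76 and 3.32 in the sh-CBAP libraries. It had 6.22 and 6.51 FPKM in the libraries labelled CBAP-reconstituted and 9.72 and 9.18 in the CBAP-KO libraries. The CBAP-expressing libraries of the sets overlapped, while the sh-CBAP libraries lay below and the CBAP-KO libraries above all of them. The log2 fold change was 0.50 ± 0.15 in the CRISPR set (SE, adjusted p = 0.032, limma), but this call was lost with quantile normalization, with scaling to a common median, with the replicate block and without any 1 of the 4 CRISPR-set libraries (adjusted p up to 0.14 over 17 alternatives, limma). In the shRNA set it was -0.49 (95% interval -0.85 to -0.13, adjusted p = 0.084, limma), which did not pass, although it did without sh-CBAP replicate 1 (-0.70, adjusted p = 0.015, range over 17 alternatives 0.015 to 0.23, limma). The change differed between the sets by -0.997 ± 0.20 on the log2 scale (SE, adjusted p = 0.016, limma). That difference was lost with quantile normalization and without either CBAP-reconstituted library or CBAP-KO replicate 1 (adjusted p range over 17 alternatives 0.0031 to 0.072, limma). CBAP-KO cells were above sh-CBAP cells by 1.07 ± 0.15 (adjusted p = 0.0025, limma). SPRY4, a further Sprouty gene below the filter, had 0.579 and 0.374 FPKM in sh-Ctrl, 0.406 and 0.489 in sh-CBAP, 0.778 and 0.628 in CBAP-reconstituted and 0.183 and 0.196 in CBAP-KO libraries.

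No change of a Spred gene passed the test within either set. SPRED1 (GRCh37 chromosome 15, 38545037 to 38649450, plus strand) had 2.86 and 3.55 FPKM in the sh-Ctrl and 4.30 and 4.38 in the sh-CBAP libraries. It had 4.11 and 3.96 FPKM in the libraries labelled CBAP-reconstituted and 3.05 and 3.61 in the CBAP-KO libraries. The groups did not overlap in either set but lay in opposite order. Neither change passed the threshold, at 0.35 ± 0.11 in the shRNA set (SE, adjusted p = 0.097) and -0.22 ± 0.11 in the CRISPR set (adjusted p = 0.15, limma). The difference between them was 0.57 ± 0.16 (SE, adjusted p = 0.039, limma) and was lost without any 1 library except sh-Ctrl replicate 2 (adjusted p range over 16 alternatives 0.021 to 0.13). SPRED2 (GRCh37 chromosome 2, 65537985 to 65659771, minus strand), the more abundant Spred gene, had 15.8 and 12.4 FPKM in the sh-Ctrl, 13.5 and 18.1 in the sh-CBAP, 10.3 and 10.2 in the CBAP-reconstituted and 9.74 and 9.64 in the CBAP-KO libraries. Its shRNA-set libraries overlapped. Its log2 fold changes were 0.15 (95% interval -0.24 to 0.55, adjusted p = 0.56, limma) and -0.07 (95% interval -0.47 to 0.32, adjusted p = 0.73, limma). The CBAP-KO cells lay below the sh-CBAP cells by -0.64 ± 0.16 on the log2 scale (adjusted p = 0.019, limma), a call lost without either CBAP-KO library (range over 17 alternatives 0.0038 to 0.073).

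**Figure D2:**
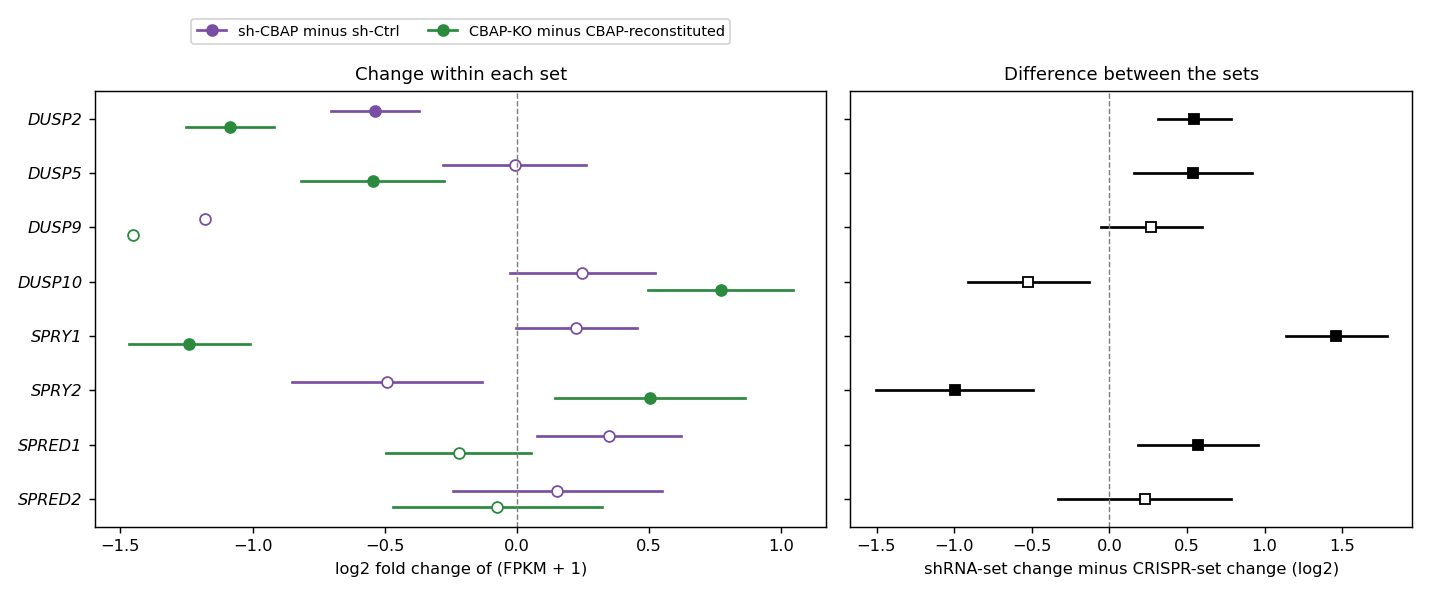
Log2 fold change of (FPKM + 1) of the 8 tested genes within each set (left, CBAP-deficient minus CBAP-expressing) and the difference of these changes (right, shRNA set minus CRISPR set), with 95% intervals from limma and filled symbols for an adjusted p under 0.05. DUSP9 has no interval on the left, where its values chose it. DUSP2 lies below 0 in both sets, while SPRY1 and SPRY2 lie on opposite sides of 0 in the sets.

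Counted together, 1 of the 7 tested genes other than DUSP9 changed in the shRNA set (DUSP2, lower), where 12.3% of all tested genes did. In that set 3.62% of all genes rose and 8.7% fell, a split of calls that shifted from 29.4% to 50.4% higher with quantile normalization. In the CRISPR set 5 of the 7 changed, with DUSP10 and SPRY2 higher and DUSP2, DUSP5 and SPRY1 lower, against 49.9% of all genes (23.9% higher and 25.9% lower). In the shRNA set their median log2 fold change was 0.15, where that of all tested genes was -0.06, and the CRISPR-set medians were -0.22 and 0. The CRISPR-set count was 3 without replicate 2 of CBAP-reconstituted cells, and the shRNA-set count was 2 without sh-CBAP replicate 1. A difference in change between the sets passed for 5 of 8 genes (DUSP2, DUSP5, SPRY1, SPRY2 and SPRED1), against 33.8% of all genes (15.5% with the higher value in the shRNA set and 18.3% with the lower). This count was 2 without either CBAP-reconstituted library or CBAP-KO replicate 1, and 3 without sh-CBAP replicate 1 or CBAP-KO replicate 2. With the 4 CBAP-deficient libraries set against the 4 CBAP-expressing libraries without regard to set, 0 of the 7 genes passed in limma, where 0.621% of all genes did (0.21% higher and 0.411% lower), and 2 of them had an unadjusted p under 0.05 (DUSP2 and DUSP10). With the set as a covariate, DUSP2 passed (-0.81, adjusted p = 0.015, limma), and 12.3% of all tested genes did so in that model, close to the 1 of 7. That model was not run under the other alternatives. Without the covariate, the adjusted p of DUSP2 was 0.15 (limma). Of the 7 tested genes other than DUSP9, whose order chose it, DUSP2 had all 4 CBAP-deficient libraries below all 4 CBAP-expressing libraries, an order found in 10.3% of all tested genes, and DUSP10 had the reverse order, found in 4.67%. These 2 of 7 also lay on the same side in both sets without overlap, near the 27.6% of all tested genes that did. DUSP2 alone among the 7 was called in the same direction in both sets (5.76% of all genes), and 0 of 7 were called in opposite directions (2.49%). SPRY1, SPRY2 and SPRED1 lay without overlap on opposite sides in the sets, as did 16.4% of all tested genes.

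Between cells of the same CBAP class the sets also differed at these genes. Cells labelled CBAP-reconstituted were lower than sh-Ctrl cells in DUSP2 (-0.39, adjusted p = 0.0082, limma) and SPRY1 (-0.30, adjusted p = 0.048), and higher in DUSP5 (0.35, adjusted p = 0.0496) and DUSP9. Relative to the median of all tested genes, these differences were -0.55 for DUSP2, -0.47 for SPRY1, 0.18 for DUSP5 and 0.30 for DUSP9. The DUSP5 call was lost with quantile normalization (adjusted p = 0.071, limma) and with a common median (0.27, adjusted p = 0.13, limma). These 4 calls among 8 genes compare with 39.4% of all tested genes (28.7% higher and 10.7% lower), whose median was 0.17 higher in the reconstituted cells. The count was 2 without sh-Ctrl replicate 1 or either CBAP-KO library, 1 without CBAP-reconstituted replicate 1 and 0 without replicate 2. CBAP-KO cells differed from sh-CBAP cells in 4 of 8 genes, with DUSP2 (-0.94, adjusted p = 0.0003, limma), SPRY1 and SPRED2 lower and SPRY2 higher, against 52.8% of all tested genes (37.9% higher and 14.8% lower), whose median was 0.20 higher in CBAP-KO cells. Relative to that median the differences were -1.14 for DUSP2, -1.96 for SPRY1, -0.84 for SPRED2 and 0.87 for SPRY2. These comparisons share libraries with those within the sets.

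Other genes of the pathway were taken from 6 lists of 57 genes, of which 52 were in the table and 40 were tested. In the shRNA set 6 of 40 changed, 1 higher and 5 lower, near the share of all tested genes (12.3%, with 3.62% higher and 8.7% lower). EGR1, an immediate-early transcription factor induced by ERK, had 2.56 and 1.60 FPKM in sh-Ctrl and 0.921 and 0.684 in sh-CBAP libraries (log2 fold change -0.76, adjusted p = 0.039, limma). It was the only call among the 5 tested ERK-responsive genes, whose median log2 fold change was 0.05. In the CRISPR set the EGR1 value was -0.14 (adjusted p = 0.52, limma). The transcription factors SRF (-0.63, adjusted p = 0.030, limma) and ELK1 (-0.35, adjusted p = 0.015, limma) act together at the promoters of immediate-early genes. Both fell in the shRNA set, as 2 of the 7 tested genes of their list, and none of that list rose. The phosphatase DUSP1 fell (-0.40, adjusted p = 0.029) as 1 of 3 tested genes of the other MAP kinase phosphatases. Of 15 tested genes of the kinase cascade, RPS6KA2 fell (-0.55, adjusted p = 0.027) and RPS6KA3 rose (0.34, adjusted p = 0.030), both encoding RSK kinases downstream of ERK. In the CRISPR set RPS6KA3 also rose (0.38, adjusted p = 0.0058, limma), and RPS6KA2 did not pass (0.17, adjusted p = 0.21, limma). Of 10 tested RAS activators and RAS GTPase-activating proteins, 0 passed in limma and 1 had an unadjusted p under 0.05. The count of 6 was 0 without either CBAP-reconstituted library, 1 without either CBAP-KO library, 2 without sh-Ctrl replicate 1 and 10 without sh-CBAP replicate 2.

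In the CRISPR set 22 of the 40 changed, 16 higher and 6 lower in CBAP-KO cells, close to the 49.9% of all tested genes. Among the regulators of RAS, 5 rose and 2 fell. RASA3, which turns RAS off, had 2.45 and 2.37 FPKM in the libraries labelled CBAP-reconstituted and 10.4 and 10.3 in the CBAP-KO libraries (log2 fold change 1.74, adjusted p = 0.0016, limma), and it had 6.95 to 14.9 in the shRNA-set libraries. RASAL3, of the same function, had 9.38 and 10.1 against 35.9 and 32.8 FPKM (1.72, adjusted p = 0.0019). The RAS activators SOS1, with 1.41 and 1.52 against 6.55 and 6.41 FPKM (1.60, adjusted p = 0.00087), and SOS2 (0.95, adjusted p = 0.0016) rose as well. RASA1 (-0.76, adjusted p = 0.0053) and the adaptor GRB2 (-0.42, adjusted p = 0.0086) fell. In the cascade 5 genes rose and 3 fell, the largest changes being those of the RAF-activating scaffold SHOC2 (0.49, adjusted p = 0.0034), the ERK1 gene MAPK3 (0.43, adjusted p = 0.012), HRAS (-0.42, adjusted p = 0.017) and the MEK2 gene MAP2K2 (-0.29, adjusted p = 0.019). ETS2 (1.12, adjusted p = 0.00044) and ELK4 (0.57, adjusted p = 0.021) led the 3 transcription factors that rose, and none of that list fell. IER3 (1.76, adjusted p = 0.00077) and IER2 (0.55, adjusted p = 0.040) rose as 2 of 5 tested ERK-responsive genes. DUSP16, a phosphatase of JNK and p38, rose (1.08, adjusted p = 0.0081) and the ERK phosphatase DUSP7 fell (-0.18, adjusted p = 0.049). The count of 22 dropped to 11 when either CBAP-reconstituted library was left out and to 12 without CBAP-KO replicate 2. Of the 7 ERK-responsive genes in the table below the filter, EGR2, EGR3, FOS, ETV4 and CCND1 were listed at 0 in every shRNA-set library, as DUSP4 was. In the CRISPR set these 5 genes had 0.117 to 0.785 FPKM in the libraries labelled CBAP-reconstituted and 0.0218 to 0.212 in the CBAP-KO libraries. They are 5 of the 52 pathway genes, where 366 of all 13453 genes were listed at 0 and above 0 by set in this way. Values above 0 but under 0.1 FPKM numbered 259 to 337 per CRISPR-set library and 8 to 37 per shRNA-set library. The other genes below the filter, FOSL1 and PHLDA1, were listed at 0 in each sh-Ctrl library. In the sh-CBAP libraries FOSL1 had 0.368 and 0.362 FPKM, and PHLDA1 had 0 and 0.309. PHLDA1 had 0.361 and 0.369 FPKM in CBAP-reconstituted and 0.55 and 0.527 in CBAP-KO libraries, and FOSL1 had 0.054 and 0.0756 against 0.161 and 0.0381.

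**Figure D3:**
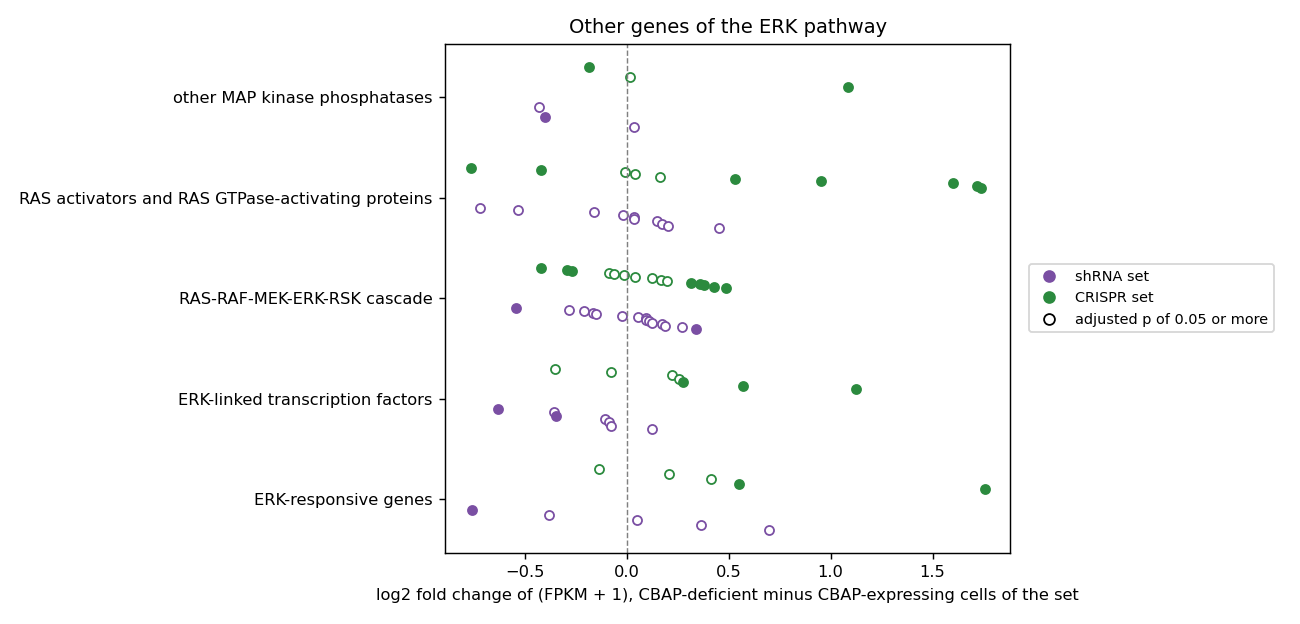
Log2 fold change of (FPKM + 1), CBAP-deficient minus CBAP-expressing cells, of the 40 tested genes of the pathway lists in the shRNA set and the CRISPR set, with 1 point per gene and filled points for an adjusted p under 0.05 (limma). In the shRNA set 1 gene rose and 5 fell, and in the CRISPR set 16 rose and 6 fell.

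The genes whose levels followed DUSP9 most closely were ranked by Pearson's r of log2(FPKM + 1) over the 8 libraries, among 11426 other tested genes. The libraries of a condition share their cells, so r here mostly describes the order of 4 conditions. IFT52, a subunit of the intraflagellar transport complex, had the highest r (0.997), with 19.3 to 23.1 FPKM in the CBAP-expressing and 14.2 to 15.6 in the CBAP-deficient libraries. SCARNA27, a small Cajal body RNA (r = 0.990), had no value above 0 in the 4 CBAP-deficient libraries, where it is listed at 0, and 34.4 to 166 FPKM in the others. The predicted transporter gene MFSD3 (r = 0.990), NDUFA10 of respiratory complex I (r = 0.989) and C14orf132 (r = 0.988) followed. C14orf132 was the closest of the 5 in level, with 2.32 to 3.95 FPKM in the CBAP-expressing and 0.734 to 1.01 in the CBAP-deficient libraries. Among the members r with DUSP9 was 0.756 for DUSP5, 0.599 for DUSP2, 0.229 for SPRY1, 0.116 for SPRY2, -0.107 for SPRED1, -0.274 for SPRED2 and -0.856 for DUSP10. None of the other members was among the 5 genes most like DUSP9. By r, DUSP5 ranked 1566 and DUSP2 ranked 2785 among the 11426 genes.

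**Figure D4:**
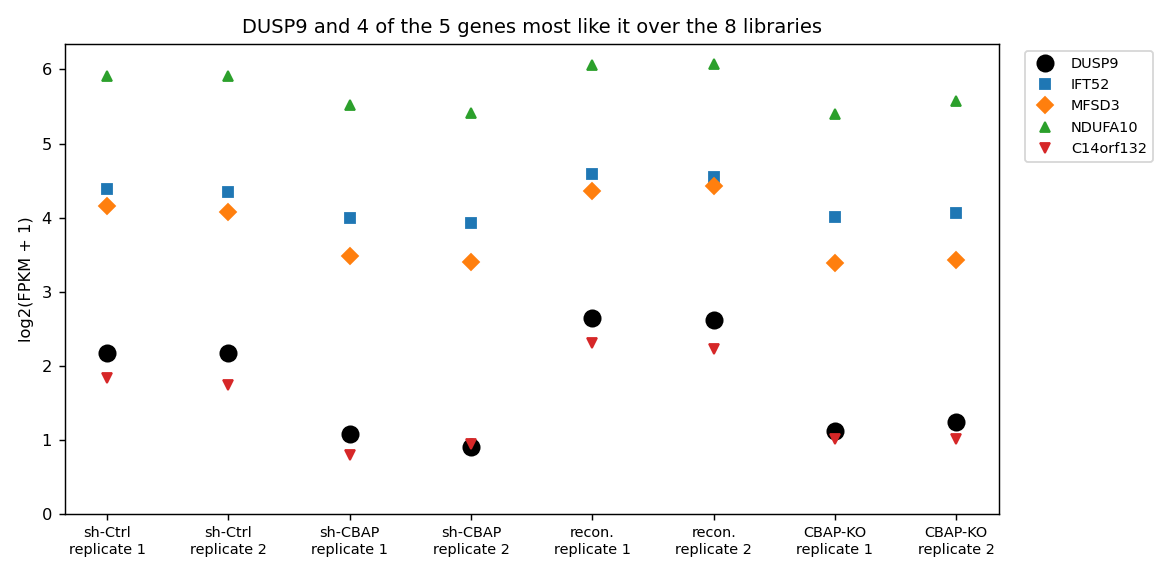
Log2(FPKM + 1) (vertical axis) of DUSP9 and of 4 of the 5 genes most like it in each of the 8 libraries (horizontal axis), leaving out SCARNA27, which is listed at 0 in all CBAP-deficient libraries. All plotted genes are lower in the 4 CBAP-deficient libraries and highest in the libraries labelled CBAP-reconstituted.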

How the data were processed

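RNA was measured by RNA-seq in 8 libraries of Jurkat-derived cells. The authors used TopHat 2 to align paired-end reads to hg19 and cuffdiff of Cufflinks to estimate FPKM, and deposited 1 FPKM table with a column per library. For Cufflinks the version, and for the table the annotation, the scaling and any use of strand are not given in the sources used here. The table holds no counts, so the depth behind a value is unknown, and no counting interval was computed. Of the 10 genes, DUSP6 and SPRED2 overlap another annotated gene, and neither of those is in the table.

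The deposited FPKM values were taken to log2 after adding a pseudocount of 1. Genes whose FPKM averaged at least 1 (11427 of 13453) were tested with limma 3.58.1 in R 4.3.3, using empirical Bayes with a trend, Benjamini-Hochberg adjustment and a threshold of 0.05. A model with a mean per condition gave the changes within each set, their difference and the comparisons between sets. In it the 4 conditions shared 1 estimate of the spread. A second model set the 4 CBAP-deficient libraries against the 4 CBAP-expressing ones. No replicate block was used. The code was tested on simulated data. The alternatives changed the pseudocount (0.1 and 5), the filter (none, or a mean FPKM of at least 5), the scaling (quantile normalization, or a common median), the trend, the listed zeros, the block, the set as a covariate and single libraries.

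The members, the pathway lists and the markers were chosen with earlier results of these data known. Of each list, the genes named are the 2 that rose most and the 2 that fell most among the calls of a set, and those likest DUSP9 are the 5 with the highest Pearson's r. SPRY4, SOS1, SOS2 and the ERK-responsive genes below the filter were named after their values were seen, as were CD3E, CD5, CD28, CD7 and TAL1 among the markers. Gene positions are those of GENCODE 44 on GRCh37, and start regions those of RefSeq on GRCh38.p14. Python 3.11.15, numpy 2.4.6, pandas 2.3.3 and matplotlib 3.10.9 were used.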

Additional observations from a re-analysis of the deposited data

Results flagged for a closer look

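The change with CBAP loss differed between the shRNA set and the CRISPR set by the interaction contrast of limma for 5 of the 8 tested genes, given here as the shRNA-set minus the CRISPR-set log2 fold change. DUSP2 fell in both sets, by 0.55 less in the shRNA set (0.5479, adjusted p = 0.0094). DUSP5 fell in the CRISPR set, with a difference of 0.5378 (adjusted p = 0.044). SPRY1 fell in the CRISPR set and its value was above 0 in the shRNA set, a difference of 1.463 (adjusted p = 0.0012). SPRY2 rose in the CRISPR set and its value was below 0 in the shRNA set, a difference of -0.9975 (adjusted p = 0.016). SPRED1 passed in neither set but in the difference, at 0.5688 (adjusted p = 0.039). The method, the clones and the processing of the sets cannot be told apart. A difference of this kind was found in 33.8% of all tested genes. The 10 genes gave 20 groups of 4 libraries by CBAP class, and in 0 of these did a single library lie far from the other 3. About 1 would be expected by chance for 4 libraries of 1 kind. Each group here joins cells of the 2 sets with 2 libraries each. Where the sets differ, a single library can hardly stand apart, so no conclusion on single libraries is drawn from the 0.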

How the results depend on the processing

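The depth behind each FPKM is unknown, and precision rests on 2 libraries per condition. The 4 conditions share 1 estimate of the spread, so a p-value of the shRNA set also depends on the CRISPR-set libraries. Replicates were most alike in the libraries labelled CBAP-reconstituted (r of log2(FPKM + 1) 0.992, against 0.923 to 0.953 in the other conditions). Where 1 library is left out, the lone library is assumed to vary like the other conditions. The calls of DUSP2 and SPRY1 in the CRISPR set and in the difference between sets, of DUSP2 in the shRNA set and of DUSP10 in the CRISPR set held under every alternative in which the gene was tested. The other counts moved as follows. Leaving out genes with a listed 0 gave 2 members called in the shRNA set (1 as reported). A mean FPKM of at least 5, which leaves 3 of the members, gave 2 in the CRISPR set (5 as reported), 2 in the difference between sets (5 as reported) and 1 in CBAP-reconstituted against sh-Ctrl cells (4 as reported). Quantile normalization gave 3 in the difference, a pseudocount of 0.1 gave 2 in CBAP-reconstituted against sh-Ctrl cells, and no filter gave 7 of 10 in CBAP-KO against sh-CBAP cells (4 of 8 as reported). The set as a covariate gave 1 in the pooled comparison (0 as reported), while the share of all tested genes called rose from 0.621% to 12.3%. The groups share replicate numbers in the labels, but same-numbered libraries did not deviate together (r of their deviations from the group means, between groups, from -0.063 to 0.15). The replicate block gave 2 members in CBAP-reconstituted against sh-Ctrl cells and 2 pathway genes in the shRNA set (6 as reported), ended the calls of SPRY2 in the CRISPR set (adjusted p = 0.051, limma), of DUSP5 in the difference (0.077) and of DUSP5 (0.083) and SPRY1 (0.080) in CBAP-reconstituted against sh-Ctrl cells, and moved no other count by over 1.5 times. With each library left out in turn, the members called ranged from 1 to 2 in the shRNA set, 3 to 5 in the CRISPR set, 2 to 5 in the difference, 0 to 5 in CBAP-reconstituted against sh-Ctrl cells, 3 to 6 in CBAP-KO against sh-CBAP cells and 0 to 0 in the pooled comparison, and the pathway genes from 0 to 10 in the shRNA set and from 11 to 23 in the CRISPR set. Values near 0 that passed no test changed sign. The shRNA-set value of DUSP5 (-0.01) became 0.12 with quantile normalization and 0.026 with a common median, and ranged from -0.12 to 0.098 with single libraries left out. The SPRY2 difference between CBAP-reconstituted and sh-Ctrl cells (0.07) became -0.038 with a common median and ranged from -0.0058 to 0.15 with single libraries left out. The pooled value of SPRY2 (0.0059) became -0.012 with a pseudocount of 0.1, -0.033 with quantile normalization and -0.0057 with a common median, and ranged from -0.18 to 0.25 with single libraries left out. The same ranges were -0.020 to 0.15 for SPRED1 pooled, -0.047 to 0.35 for SPRED2 in the shRNA set and -0.13 to 0.16 for SPRED2 pooled. The DUSP9 change ranged with the pseudocount from -0.51 to -1.74 in the shRNA set and from -0.70 to -1.96 in the CRISPR set. The share of all tested genes called ranged over the alternatives from 2.68% to 20.8% in the shRNA set and from 29.5% to 59.9% in the CRISPR set. Under the scalings, the share of calls that were higher moved from 72.9% to 54.7% in CBAP-reconstituted against sh-Ctrl cells and from 71.9% to 45.1% in CBAP-KO against sh-CBAP cells.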
